A study of Mus musculus with 13 samples.

Results

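The 10 genes described here are linked to anergy, the unresponsive state that T cells can enter after they meet antigen. They were taken by name from a table of 55774 gene entries, and all 10 were found there: Izumo1r, Nt5e, Nrp1, Cblb, Rnf128, Itch, Dgka, Dgkz, Egr2 and Egr3. The study made 13 bulk RNA-seq libraries of sorted CD4+ T cells, most of them after culture with islet macrophages. The T cells were labelled as primary naive cells from the spleen of female NOD mice carrying the BDC2.5 T cell receptor transgenes (strain NOD/ShiLtJ, transgene Tg(TcraBDC2.5,TcrbBDC2.5)1Doi). All of them therefore carried the same transgenic receptor, which recognises a beta-cell antigen.

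Of the 3 groups, 5 libraries came from T cells co-cultured with islet macrophages of NOD mice injected with streptozotocin (STZ), a toxin of beta cells, at a low dose given once (the STZ-macrophage co-culture). Another 4 came from T cells co-cultured with islet macrophages of buffer-injected NOD mice (the control-macrophage co-culture). The last 4 came from CD4+ T cells alone, labelled untreated. Macrophage donors were injected at 4 weeks and their islets taken at 5.5 weeks of age, 10 days after the injection. Co-culture lasted 96 hours and was followed by sorting of live T cells. Neither the age of the T cell donors nor any time in culture is given for the cells alone. Effects of culture and of macrophages therefore cannot be told apart where a co-culture is set against them. STZ-macrophage replicates 2, 3 and 4 and control-macrophage replicate 3 carry the batch label day 2, and all other libraries day 1.

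Anergy follows when a T cell receives a signal through its antigen receptor with too little costimulation or other growth signals. The transcription factors Egr2 and Egr3 are induced by calcium and NFAT signals and switch on inhibitors of T cell activation. Among these are diacylglycerol kinases, which remove the lipid that activates Ras, and E3 ubiquitin ligases, which mark signalling proteins for breakdown. Folate receptor 4 (gene Izumo1r) and CD73 (gene Nt5e) mark anergic CD4+ T cells in mice. Regulatory T cells also carry folate receptor 4, CD73 and neuropilin-1.

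Promoter sequences were searched for binding motifs of factors downstream of the T cell receptor. RefSeq windows of 250 bases before a transcript start (GRCm38.p6) were available for 8 members, 16 windows in all. Egr2, an immediate-early gene, had a serum response element, in which CC and GG flank a run of A and T, in 4 of its 5 windows, against 1.47% of 32851 mouse windows of this length. Of those 4 windows, 3 overlap and hold the same match. The sequences below are shown because they hold the 2 different matches, and both are on the plus strand and within the annotated Egr2 gene. Capitals mark the motif matches.

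Egr2, chr10:67537619-67537868, plus strand: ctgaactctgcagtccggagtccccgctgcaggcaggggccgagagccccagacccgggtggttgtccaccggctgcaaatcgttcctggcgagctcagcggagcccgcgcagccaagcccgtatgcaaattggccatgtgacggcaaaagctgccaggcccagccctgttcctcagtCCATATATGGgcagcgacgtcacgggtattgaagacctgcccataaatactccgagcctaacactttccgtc

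Egr2, chr10:67537316-67537565, plus strand: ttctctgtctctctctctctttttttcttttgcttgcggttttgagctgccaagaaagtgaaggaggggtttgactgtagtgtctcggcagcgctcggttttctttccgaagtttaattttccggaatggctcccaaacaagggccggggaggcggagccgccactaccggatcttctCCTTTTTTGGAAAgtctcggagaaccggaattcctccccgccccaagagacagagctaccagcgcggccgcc

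In the first window the serum response element began 72 bases before the start. In the second it also began 72 bases before the start, and it overlapped a match to TGGAAA, the core of NFAT sites. Searched on both strands, TGGAAA was found in 18.6% of all windows and in 5 of the 16 member windows, 3 of Dgka, 1 of Egr2 and 1 of Izumo1r. The serum response element was also found in the window of Rnf128. TGACGTCA, the cyclic AMP response element (1.55% of all windows), TGANTCA, the AP-1 site (6.75%), GCGTGGGCG, the site of Egr factors (0.536%), and GTAAACA, the Foxo site (3.17%), were not in the members' windows. A match is a run of letters and not evidence of binding.

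Library totals were 33.4 to 58.8 M estimated counts  in the STZ-macrophage co-culture, 30.6 to 61.3 M in the control-macrophage co-culture and 17.3 to 39.8 M in the cells alone. Markers of T cells were present in all libraries, with Cd3e at 1197 ± 141, 1591 ± 431 and 1502 ± 415 CPM (counts scaled per M of the library) in the STZ-macrophage co-culture, the control-macrophage co-culture and the cells alone (SD, n = 5, 4 and 4). Foxp3 and Ikzf2, which mark regulatory T cells, were low in the cells alone, at 1.52 ± 0.686 and 0.948 ± 0.653 CPM. The 25 macrophage markers summed to 624 to 948, 753 to 1097 and 381 to 732 CPM in the same order of groups. Most of it was Ctsb (476 ± 57.2, 476 ± 19.9 and 295 ± 59.9 CPM) and Ctss (220 ± 38.8, 353 ± 120 and 233 ± 79.4 CPM). Of the 25 markers, 8, 14 and 20 averaged under 1 CPM. Mertk and Spi1 were at 0 in every control-macrophage library, and Itgax and Cd14 in every library of cells alone. The macrophage marker Adgre1 averaged 2.06 CPM in the STZ-macrophage co-culture, 1.55 CPM in the control-macrophage co-culture and 0.0447 CPM in the cells alone. In that order Lyz2 averaged 23.2, 7.61 and 0.0366 CPM and C1qa 3.89, 0.703 and 0.206 CPM. Of the 20 macrophage markers tested, 16 had a positive log2 fold change with STZ over control macrophages, and none was called. The 10 islet hormone and granule genes stood apart in STZ-macrophage replicates 2 and 4, with sums of 168 and 145 CPM, against 3.33 CPM or less in each of the other libraries. The 10 B cell markers summed to 149.5 to 198, 594 to 767 and 723 to 1677 CPM in the 3 groups, most of it Ighm (169 ± 19.1, 679 ± 81.4 and 1261 ± 418 CPM), and 9, 9 and 5 of them averaged under 1 CPM. The 11 endothelial and stromal markers summed to 80.9 to 94.8, 181 to 279 and 96.0 to 289.9 CPM, most of it Pecam1 (77.8 ± 10.4, 243 ± 44.8 and 205 ± 89.7 CPM). Of these 11, 7, 9 and 10 averaged under 1 CPM, and the endothelial markers Cdh5 and Emcn were at 0 in every library. Ighm (log2 fold change -1.99, edgeR adjusted p = 0.00870) and Pecam1 (-1.63, adjusted p = 0.0437) were lower with STZ than with control macrophages, and the other tested genes of these 2 lists were not called. The part of RNA from such cells in the results below was not tested. In bulk RNA, fewer cells of a type and less RNA per cell cannot be told apart.

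**Figure D1:**
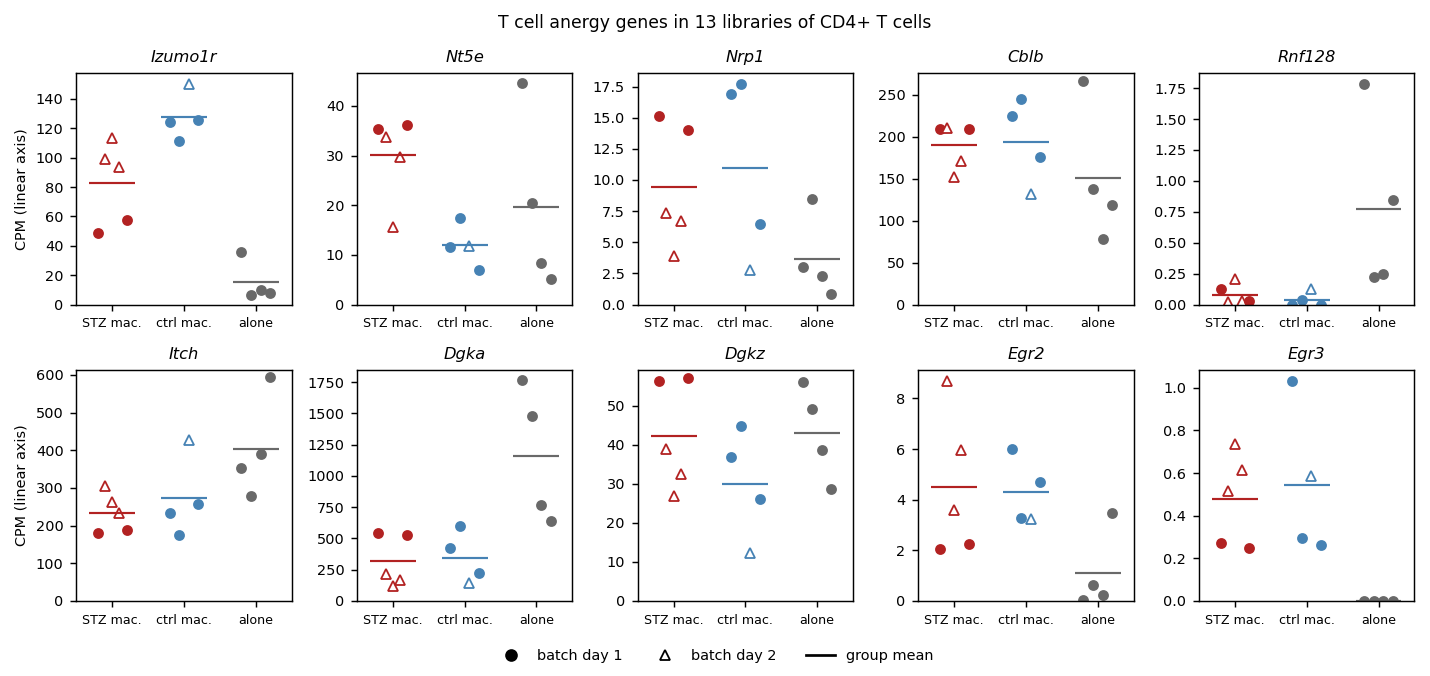
Each panel gives the CPM of a member (vertical linear axes from 0) in the STZ-macrophage co-culture (STZ mac.), the control-macrophage co-culture (ctrl mac.) and the cells alone, with filled circles for batch day 1, open triangles for day 2 and lines for group means. Izumo1r and Egr3 lie higher, and Dgka and Rnf128 lower, in every co-culture library than in every library of cells alone, and no member separates the co-cultures from each other.

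The first question was how the members differed between T cells that had met islet macrophages and T cells alone. Co-cultured cells had more Izumo1r, Nrp1 and Egr3 mRNA and less Itch and Dgka mRNA, with either kind of macrophage. Izumo1r averaged 82.5 ± 28.1 CPM with STZ macrophages and 128 ± 16.2 CPM with control macrophages, against 15.1 ± 13.8 CPM in the cells alone (SD, n = 5, 4 and 4). Of the 9 members that could be tested, the same 5 passed in both comparisons, 3 higher and 2 lower (edgeR quasi-likelihood test with group and batch day, adjusted p under 0.05 by Benjamini-Hochberg). Of all 15781 genes tested, 43.1% passed with STZ macrophages against the cells alone (20.8% higher and 22.3% lower), and 45.0% with control macrophages (23.1% higher and 22.0% lower). The 5 of 9 members are thus not far from the share of all genes. Egr3, 1 of the 5, had no count in the cells alone and passed the filter on low counts only through the co-cultures. Rnf128, with its highest counts in the cells alone, did not pass it. Both comparisons use the same cells alone, so they are not independent. Over the 9 members tested, the median log2 fold change was 0.77 for the STZ-macrophage and 0.45 for the control-macrophage co-culture. Over all genes it was -0.048 and -0.13. The members' medians include Egr3 and leave out Rnf128, whose log2 fold changes with no filter were -3.60 and -4.68. They therefore depend on the filter.

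Among the surface proteins, Izumo1r (chromosome 9, 14885814 to 14903949, minus strand, ENSMUSG00000031933, GRCm38) encodes folate receptor 4. It was at 48.7, 99.4, 113, 93.9 and 57.3 CPM in STZ-macrophage replicates 1 to 5. Control-macrophage replicates 1 to 4 held 124, 111, 150.3 and 126 CPM, and the cells alone 35.6, 6.53, 9.89 and 8.19 CPM. Every co-culture library was above every library of cells alone, which was the case for 21.7% of all genes with STZ macrophages and 22.2% with control macrophages. The log2 fold change over the cells alone was 1.96 (SE 0.50, edgeR adjusted p = 0.00739) with STZ macrophages and 2.91 (SE 0.48, adjusted p = 0.000352) with control macrophages.

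Nt5e (chromosome 9, 88327197 to 88372092, plus strand, ENSMUSG00000032420) encodes CD73, which makes adenosine from AMP. It was at 35.3, 33.8, 15.7, 29.8 and 36.2 CPM in the STZ-macrophage libraries and at 11.7, 17.5, 11.9 and 6.96 CPM in the control-macrophage libraries. The cells alone ranged more widely, with 44.6, 20.5, 8.32 and 5.15 CPM, and overlapped both co-cultures. Against the cells alone, the log2 fold changes of 0.77 (SE 0.62, edgeR adjusted p = 0.335) with STZ macrophages and -0.64 (SE 0.59, adjusted p = 0.398) with control macrophages did not pass. Without cells-alone replicate 1, the first became 1.59 (adjusted p = 0.0249) and the second 0.18 (adjusted p = 0.778). In the authors' second table, of log2 values they adjusted, the log2 fold change with control macrophages was -2.18 and passed (limma adjusted p = 0.000983). That with STZ macrophages was -0.66 and did not pass. Most genes of that table passed over the cells alone, 6871 with STZ and 8647 with control macrophages, so a call there is not unusual.

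Nrp1 (chromosome 8, 128358604 to 128503363, plus strand, ENSMUSG00000025810) encodes neuropilin-1, a receptor for semaphorins and vascular endothelial growth factor. It was at 15.1, 7.39, 3.89, 6.69 and 14 CPM with STZ macrophages and at 16.9, 17.7, 2.81 and 6.496 CPM with control macrophages. The cells alone held 2.98, 8.49, 2.30 and 0.849 CPM, so the groups overlapped. With batch day as a term Nrp1 rose by a log2 fold change of 2.23 (SE 0.68, edgeR adjusted p = 0.0185) with STZ macrophages and 1.78 (SE 0.61, adjusted p = 0.0304) with control macrophages. The call with control macrophages was lost without cells-alone replicate 1 or 3 or control-macrophage replicate 1 or 2 (adjusted p from 0.0564 to 0.0846). Scaling by library totals also ended it (adjusted p = 0.0931). Without a day term neither call stood (adjusted p = 0.117 and 0.0856), nor in the authors' second table (limma adjusted p = 0.226 and 0.777).

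Among the E3 ubiquitin ligases, Cblb (chromosome 16, 52031225 to 52208048, plus strand, ENSMUSG00000022637) raises the need for CD28 costimulation. It was at 152 to 211 CPM (median 209) with STZ macrophages, 131 to 245 CPM (median 200.3) with control macrophages and 78.5 to 266 CPM (median 128) in the cells alone. The 3 ranges overlapped, and neither log2 fold change over the cells alone passed (0.59, edgeR adjusted p = 0.195, and 0.45, adjusted p = 0.260). The highest library of cells alone was replicate 1, and without it the log2 fold changes became 1.04 (adjusted p = 0.00595) with STZ macrophages and 0.90 (adjusted p = 0.00815) with control macrophages. On the authors' second table the signs turned, to -0.83 (limma adjusted p = 0.0782) with STZ macrophages and -1.13 with control macrophages, which passed as lower (adjusted p = 0.0104).

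Itch (chromosome 2, 155133509 to 155226855, plus strand, ENSMUSG00000027598) encodes a ligase that marks PLC-gamma and PKC-theta in anergic cells. It was at 181, 305, 262, 234 and 189 CPM with STZ macrophages, 233, 176, 427 and 256 CPM with control macrophages, and 352, 278, 389 and 593 CPM in the cells alone. The cells alone were high, with overlap through STZ-macrophage replicate 2 and control-macrophage replicate 3, both of day 2. Itch fell by 1.22 on the log2 scale with STZ macrophages (SE 0.25, edgeR adjusted p = 0.00192) and by 0.79 with control macrophages (SE 0.24, adjusted p = 0.0156). Within day 1 libraries the adjusted p were 0.0610 and 0.0517. With control macrophages the call was also lost without control-macrophage replicate 2 (adjusted p = 0.0651) and without a day term (-0.56, adjusted p = 0.142). On the authors' second table the log2 fold changes were -0.35 and -0.017, and neither passed.

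Rnf128 (chromosome X, 139563316 to 139673145, plus strand, ENSMUSG00000031438), the ligase GRAIL, was the member with the fewest counts in the co-cultures. It had 5, 1, 7, 1 and 1 counts in the STZ-macrophage libraries and 0, 2, 4 and 0 in the control-macrophage libraries, against 58, 5, 11 and 29 in the cells alone. In CPM, every co-culture library was below every library of cells alone (at most 0.206 against at least 0.222), as were 17.9% of genes with STZ macrophages and 17.7% with control macrophages. Rnf128 did not pass the filter on low counts. With no such filter its log2 fold changes were -3.60 (SE 1.31, edgeR adjusted p = 0.0516) with STZ and -4.68 (SE 1.42, adjusted p = 0.0187) with control macrophages.

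Of the diacylglycerol kinases, Dgka (chromosome 10, 128720134 to 128744855, minus strand, ENSMUSG00000025357) had the highest level of all members per kilobase of exon in each group. That level was 66.3 ± 42.8 CPM per kilobase with STZ macrophages, 72.4 ± 42.9 with control macrophages and 244 ± 115 in the cells alone (SD, n = 5, 4 and 4). By library it was at 540.4, 217, 120, 171 and 531 CPM with STZ macrophages and 420, 596, 141 and 224 CPM with control macrophages. The cells alone held 1767, 1479, 766 and 636 CPM, each above every co-culture library. Dgka fell by 1.14 on the log2 scale with STZ macrophages (SE 0.40, edgeR adjusted p = 0.0365) and by 1.48 with control macrophages (SE 0.37, adjusted p = 0.00657). The call with STZ macrophages did not stand without cells-alone replicate 1, 2 or 3, control-macrophage replicate 1, 3 or 4, or STZ-macrophage replicate 1, 3, 4 or 5, with adjusted p from 0.0503 to 0.162, nor with RLE scaling (0.0605). That call was also lost in day 1 libraries alone, with no filter on low counts, and without STZ-macrophage replicates 2 and 4 together. Without cells-alone replicates 1 and 2 together, the log2 fold changes were -0.22 (adjusted p = 0.617) with STZ and -0.74 (adjusted p = 0.0905) with control macrophages.

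Dgka was also lower on batch day 2 than on day 1, by a log2 fold change of -1.62 (SE 0.37, edgeR adjusted p = 0.0446), where 3.15% of all genes passed (2.1% higher and 1.05% lower). It was the only member called for the batch day by edgeR. Dgkz had a day difference of -1.07 (adjusted p = 0.0542) and Itch of 0.69 (adjusted p = 0.0759).

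Dgkz (chromosome 2, 91932824 to 91975864, minus strand, ENSMUSG00000040479) encodes the other diacylglycerol kinase that restrains T cell receptor signals. It was at 56.2, 38.9, 26.9, 32.5 and 57.0 CPM with STZ macrophages, 36.9, 44.8, 12.3 and 26.1 CPM with control macrophages and 56.0, 49.1, 38.7 and 28.8 CPM in the cells alone. The ranges overlapped, and the log2 fold changes over the cells alone of 0.57 (edgeR adjusted p = 0.158) and -0.37 (adjusted p = 0.286) did not pass. On the authors' second table both were negative (-1.09 and -2.26) and passed (limma adjusted p = 0.0292 and 7.86e-05), as did most genes of that table in each comparison. Exons of genes on the opposite strand, Pmel and Gm9821, cover 2.2% of the exonic bases of Dgka and 3.54% of those of Dgkz, and the unstranded libraries cannot separate such reads.

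The transcription factor Egr2 (chromosome 10, 67535475 to 67542188, plus strand, ENSMUSG00000037868) was at 2.03, 8.70, 3.60, 5.95 and 2.25 CPM with STZ macrophages and 5.99, 3.27, 3.24 and 4.72 CPM with control macrophages. The cells alone held 0.0307, 0.622, 0.224 and 3.48 CPM. Replicates 1 to 3 of the cells alone were below every co-culture library, and replicate 4, with 119 counts, was within the co-culture range. With all libraries the log2 fold changes of 1.42 (SE 1.11, edgeR adjusted p = 0.322) with STZ macrophages and 1.85 (SE 0.94, adjusted p = 0.127) with control macrophages did not pass. Without cells-alone replicate 4 they were 3.38 (adjusted p = 0.00951) and 3.81 (adjusted p = 0.00293), so that 1 library decided these calls. In the authors' second table they were 6.52 and 6.58 and passed (limma adjusted p = 2.98e-06 and 8.78e-07).

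Egr3 (chromosome 14, 70077203 to 70082614, plus strand, ENSMUSG00000033730), the partner of Egr2, had 11, 27, 25, 20 and 9 counts with STZ macrophages and 30, 18, 19 and 8 counts with control macrophages. It had 0 counts in each of the 4 libraries of cells alone. Set against a floor of 3 counts over that whole group, Egr3 was at least 21-fold higher with STZ macrophages and at least 21.9-fold higher with control macrophages. The edgeR test was made on model estimates and not on these bounds (adjusted p = 0.00155 and 0.000626). Egr3 passed the filter on low counts only through the co-cultures, where it was high, so this test depends on that choice. With no filter it was called in both comparisons as well. Its level in the co-cultures was nevertheless low, between 0.250 and 0.737 CPM with STZ macrophages and between 0.264 and 1.03 CPM with control macrophages.

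**Figure D2:**
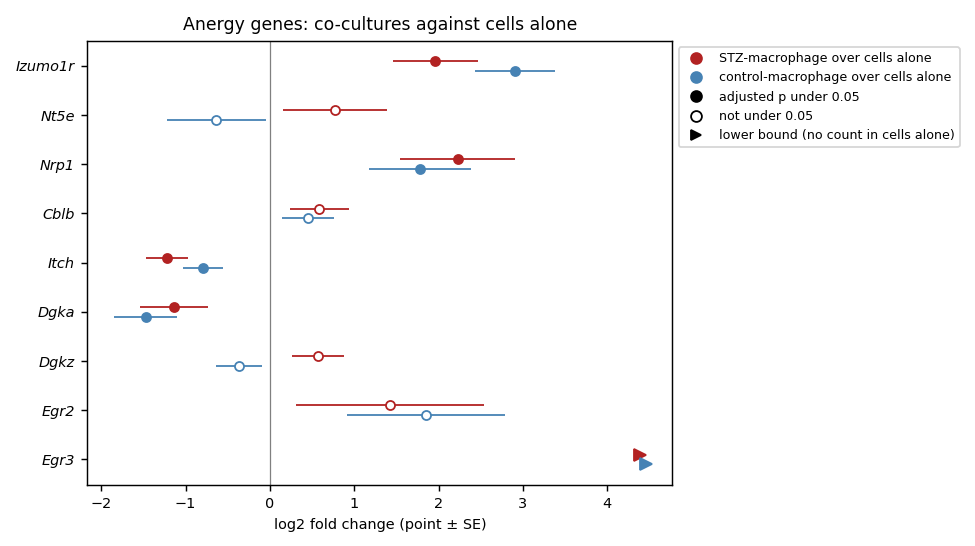
Points give log2 fold changes (horizontal axis, ± SE) of the STZ-macrophage co-culture (red) and the control-macrophage co-culture (blue) over the cells alone, filled where the edgeR adjusted p was under 0.05, and triangles give the lower bounds of Egr3. Izumo1r, Nrp1 and Egr3 lie right of 0 and Itch and Dgka left of it in both comparisons, while Nt5e and Dgkz lie on opposite sides of 0 in the 2 comparisons without passing in either.

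When only the 2 groups compared were fitted, edgeR no longer called Nrp1 with STZ (adjusted p = 0.0509) or control macrophages (adjusted p = 0.0856), Dgka with STZ macrophages (adjusted p = 0.0991) or Itch with control macrophages (adjusted p = 0.0535). Egr3 did not pass the filter on low counts in those fits.

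Genes of the pathways around the members were counted beside the 43.1% of all genes called with STZ and the 45.0% called with control macrophages over the cells alone, and the lists were not tested against these shares. Some lists hold members themselves, and their counts are then not separate from those above. In the diacylglycerol kinase family, which holds Dgka and Dgkz, 3 of 7 tested genes fell with STZ macrophages and 4 of 7 with control macrophages, and none rose. Dgkd was at 40.7 ± 14.1 and 37.5 ± 1.95 CPM in the co-cultures with STZ and with control macrophages, against 158 ± 49.0 CPM in the cells alone (SD, n = 5, 4 and 4). Its log2 fold changes were -1.75 (edgeR adjusted p = 0.000272) and -1.97 (adjusted p = 7.38e-05). Dgke fell by 2.84 and by 3.19 on the same scale. In the lipid and Ras pathway that these kinases restrain, 4 of 24 genes rose and 8 fell with STZ macrophages, and 4 rose and 12 fell with control macrophages, so that the count with STZ macrophages was near the share of all genes. Plcg1, the phospholipase that makes diacylglycerol, was at 48.5 ± 4.14, 53.0 ± 6.25 and 153 ± 35.3 CPM in the STZ-macrophage co-culture, the control-macrophage co-culture and the cells alone. Prkcq, the kinase PKC-theta that diacylglycerol recruits, was at 105 ± 36.3, 118 ± 8.54 and 338 ± 43.0 CPM in that order. All of these differences of Plcg1 and Prkcq from the cells alone passed the edgeR test.

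Of 21 tested genes around the E3 ligases, 1 rose and 8 fell with STZ macrophages, and 1 rose and 9 fell with control macrophages, both near the shares of 43.1% and 45.0% over all genes. Peli1, a ligase that restrains NF-kappaB in T cells, was at 15.6 ± 2.08 and 21.3 ± 2.24 CPM in the 2 co-cultures against 131 ± 37.0 CPM in the cells alone. Its log2 fold changes were -3.11 with STZ and -2.64 with control macrophages (edgeR adjusted p = 2.23e-06 and 3.55e-06). Around CD73, 7 of 13 tested entries of adenosine genes rose with STZ macrophages and 6 of 13 with control macrophages, and none fell. A gene symbol with more than 1 entry counts more than once here, and Adora1, with no counts, was not tested. Entpd1, the enzyme CD39 that supplies AMP to CD73, was at 43.5 ± 5.07 and 47.2 ± 23.5 CPM against 1.91 ± 0.525 CPM in the cells alone, log2 fold changes of 4.14 (edgeR adjusted p = 8.5e-07) and 4.39 (adjusted p = 4.37e-07). Among Egr factors and their co-repressors, a list that holds the members Egr2 and Egr3, Egr3 and Nab2 rose in both comparisons out of 5 tested. Nab2 rose by 2.95 and 1.66 on the log2 scale.

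Of 21 other genes linked to anergy, 8 rose and 8 fell in each comparison. Bhlhe40 was at 519 ± 61 and 229 ± 84.8 CPM in the STZ-macrophage and the control-macrophage co-culture against 2.60 ± 2.09 CPM in the cells alone, with log2 fold changes of 7.30 and 6.26. Rgs2, a brake on G-protein signals, was at 5.70 ± 2.07 and 11.6 ± 3.37 CPM against 69.6 ± 23.6 CPM, with log2 fold changes of -4.00 and -2.74, and all 4 differences passed. Activation genes were counted as well: of 19 genes of costimulation and interleukin 2 signalling, 12 rose and 2 fell with STZ macrophages, and 10 rose and none fell with control macrophages. Icos, a costimulatory receptor, was at 396 ± 102, 483 ± 219 and 55.1 ± 20.2 CPM in the STZ-macrophage co-culture, the control-macrophage co-culture and the cells alone. Of 15 regulatory T cell markers 14 rose in each comparison, beside the 20.8% and 23.1% of all genes called higher. Il2ra and Il10, at 0 in every library of cells alone, passed the filter on low counts only through the co-cultures. Areg, at 0 in every library, was not tested, so these counts depend in part on that filter. Of the 15 markers, Il2ra was at 2010 ± 539 and 2051 ± 903 CPM in the 2 co-cultures against 0 CPM in the cells alone. Foxp3 was at 12.5 ± 6.77 and 58.9 ± 37.7 CPM against 1.52 ± 0.686 CPM. The part of regulatory T cells in these counts was not tested. With STZ macrophages the medians of these lists run from -1.14 for diacylglycerol kinases to 3.92 for regulatory T cell markers, beside -0.048 over all genes. The first of these is the value of the member Dgka itself.

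The second question was whether macrophages from STZ-injected donors changed the members relative to macrophages from buffer-injected donors. No member passed the edgeR test over all genes, in which 0.323% of genes were called (0.152% higher and 0.171% lower with STZ macrophages). At an unadjusted p under 0.05 there were 2 of the 9 members, Nt5e and Dgkz, both higher with STZ macrophages, a share near the 22.8% of all genes (7.99% higher and 14.8% lower). By DESeq2, 1 member, Dgkz, was called higher, beside 5.1% of the genes given an adjusted p (3.38% higher and 1.72% lower). The 9 members tested had a median log2 fold change of 0.14, beside -0.13 over all genes, and 5 of the 9 values were positive. With both batch days pooled, the 2 groups overlapped for each of the 10 members, while 2.45% of all genes lay higher and 5.08% lower in every STZ-macrophage library.

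Part of that overlap lay between days. Izumo1r was at 48.7 and 57.3 CPM with STZ macrophages against 111 to 126 CPM with control macrophages on day 1, and at 93.9 to 113 CPM against 150.3 CPM in the single control-macrophage library of day 2. Nt5e was at 35.3 and 36.2 CPM against 6.96 to 17.5 CPM on day 1, and at 15.7 to 33.8 CPM against 11.9 CPM on day 2. Dgkz was at 56.2 and 57.0 CPM against 26.1 to 44.8 CPM on day 1, and at 26.9 to 38.9 CPM against 12.3 CPM on day 2. These 3 members did not overlap within either day, Izumo1r lower and Nt5e and Dgkz higher with STZ macrophages. Across all genes 24.5% were lower and 12.6% higher in this way, so the count among members is near the background.

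In the model with all 13 libraries, Izumo1r had a log2 fold change of -0.95 with STZ over control macrophages (SE 0.46, edgeR adjusted p = 0.235). Within days it was -1.18 (SE 0.59) on day 1 and -0.56 (SE 0.70) on day 2. Nt5e had 1.41 (SE 0.57, adjusted p = 0.189), with 1.57 on day 1 and 1.15 on day 2. Dgkz had 0.93 (SE 0.28, adjusted p = 0.148), with 0.66 on day 1 and 1.41 on day 2. No member passed within a day (0.215% of genes passed on day 1, 0.171% higher and 0.0444% lower, and 0.0% on day 2), and none passed the test of whether the STZ effect differed between days (0.00634% of genes passed), where by edgeR none had an unadjusted p under 0.05 either and by DESeq2 none was called.

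Whether these 3 members were called differed between fits. Over all 13 libraries DESeq2 called Dgkz (1.04, adjusted p = 0.0103). When only the 9 co-cultures were fitted, 2698 of 14881 genes passed, 1498 higher and 1200 lower with STZ macrophages. Of the 9 members tested, Izumo1r (-0.77, SE 0.17, edgeR adjusted p = 0.0220), Nt5e (1.60, SE 0.33, adjusted p = 0.0191) and Dgkz (1.12, SE 0.26, adjusted p = 0.0245) were among them. Without cells-alone replicates 1 and 2 the same 3 of 10 members passed (edgeR adjusted p = 0.0170, 0.0174 and 0.0211), beside 2627 of 17189 genes, 1522 higher and 1105 lower. In the fit of the 9 co-cultures each log2 fold change was within 1 SE of that from all libraries, and the SE were smaller. That fit also had its own filter, which left 14881 genes, and its own scaling, and what changed the calls was not tested.

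**Figure D3:**
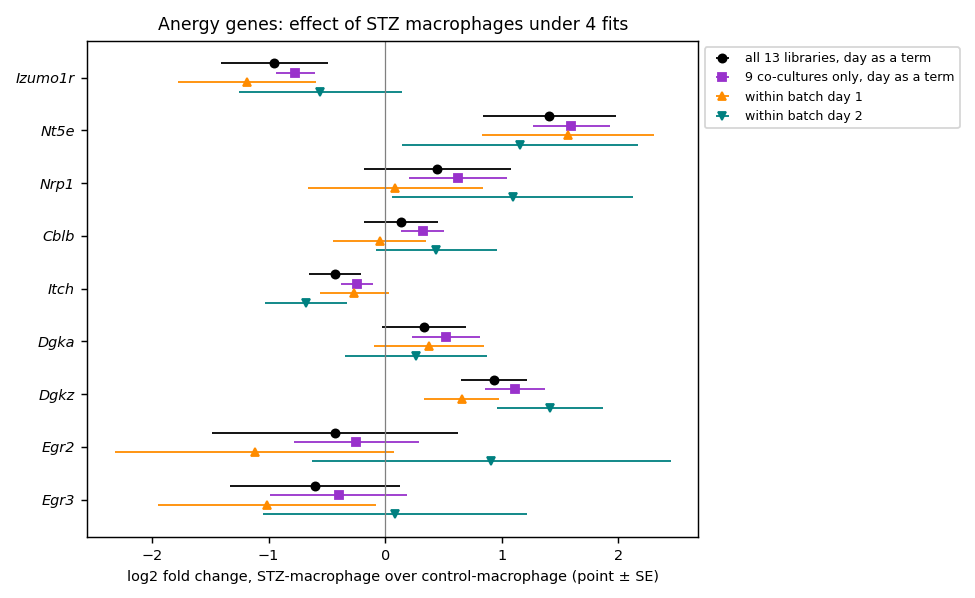
Points give log2 fold changes of the STZ-macrophage over the control-macrophage co-culture (horizontal axis, ± SE) for the 9 members tested, from all 13 libraries, from the 9 co-cultures, and within each batch day. Izumo1r lies left of 0, and Nt5e and Dgkz right of it, in each of the 4 fits, while Egr2 and Egr3 lie left of 0 on day 1 and right of it on day 2.

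The remaining members had log2 fold changes between -0.60 and 0.45 with STZ over control macrophages. The ligase Itch had -0.43 (SE 0.22, edgeR adjusted p = 0.259) and Cblb 0.14 (SE 0.32, adjusted p = 0.800). Nrp1 had 0.45 (SE 0.63, adjusted p = 0.667) and Dgka 0.33 (SE 0.36, adjusted p = 0.566). The least precise values were those of Egr2 (-0.43, SE 1.05, adjusted p = 0.812) and Egr3 (-0.60, SE 0.73, adjusted p = 0.619), so that differences of this size could not be detected in them. Rnf128 had at most 7 counts in a co-culture library, and with no filter on low counts its log2 fold change was 1.08 (SE 1.19, edgeR adjusted p = 0.755), too imprecise to show a difference of that size.

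Around the members, 1 gene of the lists linked to anergy was called with STZ over control macrophages. Ndrg1, linked to anergy in mice and induced by low oxygen, was at 131, 28.0, 22.8, 29.4 and 136 CPM with STZ macrophages and 45.8, 35.4, 5.86 and 34.0 CPM with control macrophages. The STZ-macrophage libraries of day 1 held the highest values, and within each day every STZ-macrophage library was above every control-macrophage library (log2 fold change 1.95, SE 0.29, edgeR adjusted p = 0.0199). This call was lost without STZ-macrophage replicate 1, 2, 4 or 5 or control-macrophage replicate 1, 2 or 4 (adjusted p from 0.0532 to 0.138), and without STZ-macrophage replicates 2 and 4 together (adjusted p = 0.142). The replicate block (1.94, adjusted p = 0.554), day 1 libraries alone (1.95, adjusted p = 0.168) and a fit without a day term (1.2, adjusted p = 0.590) ended it too. Ndrg1 was the only call among 21 tested genes of its list, whose median was -0.14. In the diacylglycerol kinase family all 7 log2 fold changes, those of Dgka and Dgkz included, were positive (median 0.37), with none called by edgeR. In the lipid and Ras pathway 15 of 24 were positive, among them Dusp6, a feedback phosphatase of ERK (1.5, adjusted p = 0.207), and Rasa1, which switches Ras off, was at -0.82 (adjusted p = 0.162). Among 21 genes around the E3 ligases, Ndfip2, an activator of Itch, had the smallest p (0.97, adjusted p = 0.128). Nab2 was at 11.2 ± 7.82 against 5.33 ± 1.84 CPM (1.29, adjusted p = 0.194).

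Of the 13 tested entries of adenosine genes none passed, and Dpp4, which binds adenosine deaminase in humans, was at 243 ± 44.9 CPM with STZ and 392 ± 61 CPM with control macrophages (-0.65, edgeR adjusted p = 0.188). Cd28, the main costimulatory receptor, was at 311 ± 30.7 CPM with STZ and 551 ± 121 CPM with control macrophages (-0.84, adjusted p = 0.139). Foxp3, the factor that defines regulatory T cells, was at 5.29, 11.6, 18.8, 20.2 and 6.84 CPM with STZ macrophages and 107, 54.5, 14.9 and 59.3 CPM with control macrophages (-2.51, SE 0.84, adjusted p = 0.160). Ikzf2, the factor Helios of many regulatory T cells, was at 6.25, 15.0, 19.6, 14 and 8.40 CPM with STZ macrophages and 18.7, 33.8, 14.6 and 21.6 CPM with control macrophages (-1.10, adjusted p = 0.277). As with Izumo1r, the STZ-macrophage libraries of day 1 were low in both, but on day 2 the single control-macrophage library lay within the STZ-macrophage range. Regulatory T cells carry Izumo1r, and their part in its values was not tested. The 25 macrophage markers had 16 of 20 positive log2 fold changes and none called by edgeR.

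**Figure D4:**
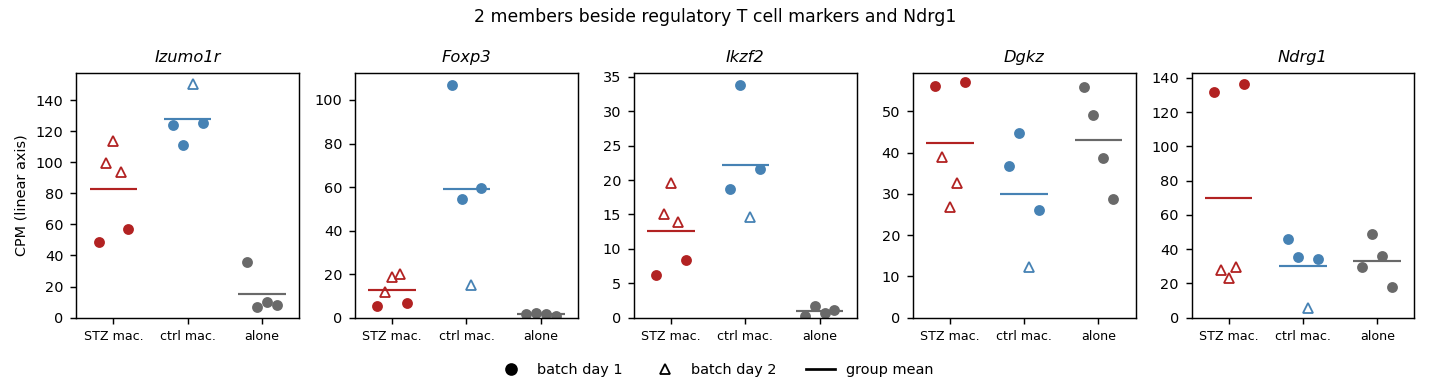
Panels give the CPM (vertical linear axes from 0) of Izumo1r, of the regulatory T cell markers Foxp3 and Ikzf2, of Dgkz and of Ndrg1 by library, with the STZ-macrophage co-culture (STZ mac.) left, the control-macrophage co-culture (ctrl mac.) in the middle and the cells alone right. Foxp3 reaches 107 CPM with control macrophages and at most 20.2 CPM with STZ macrophages, and Ndrg1 is high only in the STZ-macrophage libraries of day 1, at 131 and 136 CPM.

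The members' patterns over the 13 libraries were set against 7403 other genes, as the root mean square difference of log2 CPM after each gene was centred on its own mean. A prior count of 2 was added before taking logs, so that values at 0 counts are set by it. This likeness is a description, since the libraries share groups, batch days and depth. The difference is read beside the member's own spread on the same scale, its root mean square distance from its mean. Itch, with a spread of 0.50, lay nearest to Mpp5 (0.12) and Alg11 (0.14), and Dgkz, with a spread of 0.59, to Rabif and Ss18 (0.19 each). Dgka, with a spread of 1.19, lay nearest to Traf5 (0.25) and Zfp53 (0.27). Izumo1r, with a spread of 1.56, lay nearest to Lig1 and Cyfip1 (0.37 each), and Egr3, with 1.59, to Phgdh (0.41) and Mcm3 (0.42). Cblb, with a spread of 0.47, lay nearest to Helz2 and Mdm1 (0.24 each), and Nrp1, with 1.25, to Ube2a (0.42) and Akt2-ps (0.44). Egr2, with a spread of 1.86, had no gene closer than Cpox and Zranb3 (0.77 each). Between members, Izumo1r and Egr3 differed by 0.71, less than the spread of either. Egr3 had 0 counts in every library of cells alone, so its spread and its distances rest in part on the prior count. Cblb and Dgkz differed by 0.57, about as much as their own spreads, and Dgka and Egr2 by 2.87.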

How the data were processed

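Bulk RNA-seq of 13 libraries was used, 5 of the STZ-macrophage co-culture, 4 of the control-macrophage co-culture and 4 of cells alone, which the labels call biological replicates. Where they shared a T cell donor is not stated, and p-values measure the spread between these libraries. Per the labels' protocols, cDNA was made with an unstranded template-switching kit and paired-end reads were aligned to GRCm38. The submitters' processing notes name DESeq2. Not given in the sources used here are the counting program and the annotation release. The authors deposited a table of estimated counts without normalization, of which 11.02% are not whole, so they were rounded for the tests. A second deposited table of log2 values for 12236 genes, adjusted by the authors in a way not stated, served as an alternative. The limma tests took these values as given and did not count that adjustment, so their p-values can be too small. The second table holds 9 members and not Rnf128.

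Genes were filtered by group (filterByExpr), scaled by TMM and tested with edgeR 4.0.16 (R 4.3.3) by quasi-likelihood with group and batch day over all 13 libraries. This left 15781 genes and 9 members. CPM used TMM-scaled library sizes. P-values were adjusted by Benjamini-Hochberg over all genes, with a threshold of 0.05. SE is the log2 fold change over the root of its F value. Coordinates and exon lengths are from GENCODE vM21 (GRCm38). The alternatives were DESeq2 1.42.0, limma 3.58.1 on the second table, other scalings and filters, other sets of libraries, no day term and a replicate block. The test of STZ over control macrophages was also run on simulated counts, with changes put only in the STZ-macrophage libraries. Those counts held no day effect and no difference of the cells alone from control macrophages, so they are simpler than the data.

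The members and gene lists were chosen with earlier results of these data known. Named were all members, and of each other list up to 4 genes with the smallest p. The genes nearest in pattern are named for the members tested, except Nt5e, for which they are not reported here. Replicate numbers were checked as pairs by correlating deviations from the group means. The 4 same-numbered pairs of control-macrophage and cells-alone libraries correlated at 0.161 to 0.352. Differently numbered pairs of these groups ran from -0.43 to 0.433. Only 2 of the 4 control-macrophage libraries correlated best with their own number. These values do not establish a pairing, and the labels give none.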

Additional observations from a re-analysis of the deposited data

Results flagged for a closer look

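In the cells alone, Izumo1r stood far from the other libraries of its group in replicate 1, at 35.6 CPM against 6.53 to 9.89 CPM in replicates 2 to 4, a gap of 0.885 of the whole range. Of 29 groups of values examined, 1 was marked in this way, and chance marks about 1 in 20. Without that library Izumo1r had log2 fold changes over the cells alone of 2.85 with STZ macrophages (edgeR adjusted p = 3.85e-06) and 3.80 with control macrophages (adjusted p = 3.54e-07), against 1.96 and 2.91 with it.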

How the results depend on the processing

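Over all settings, 736 of the members' values kept their direction and side of the threshold, 22 gained a call, 38 lost one and 18 changed sign. In STZ over control macrophages 51 genes were called. This count was 650 with DESeq2, 19 without a day term, 0 with the replicate block, 2698 in the 9 co-cultures, 7 in day 1 libraries, 0 without STZ-macrophage replicates 2 and 4, 2627 without cells-alone replicates 1 and 2, 88 in the authors' second table, and 0 to 582 without 1 library. The 0 members called became 1 with DESeq2 (beside 650 of 12740 genes). They became 3 in the 9 co-cultures (beside 2698 of 14881 genes) or without cells-alone replicates 1 and 2 (beside 2627 of 17189 genes). The 5 members called with STZ macrophages against the cells alone became 2 with the replicate block (beside 3476 of 15781 genes). They were also 2 when only those groups were fitted (5085 of 15209 genes) and 2 in day 1 libraries (4810 of 17093 genes). With control macrophages the 5 became 3 without a day term (7056 of 15781 genes) and 2 when only those groups were fitted (4814 of 14590 genes). They ran from 3 to 6 without 1 library (5745 to 7760 of 15551 to 16512 genes). The difference of the STZ effect between days, called for 1 gene, had 0 by library totals or without STZ-macrophage replicates 2 and 4, 404 with DESeq2, 1349 without cells-alone replicates 1 and 2, 671 in the second table and 0 to 243 without 1 library. Without a day term, STZ over control turned to -0.22 for Nrp1, -0.030 for Cblb, -0.13 for Dgka and 0.068 for Egr2, and Dgkz with STZ macrophages over the cells alone to -0.028. With the replicate block it turned to -0.22 for Cblb and -0.0022 for Dgka. Nt5e with control macrophages over cells alone ran from -0.95 to 0.18 without 1 library (0.18 without cells-alone replicate 1) and was 0.91 without replicates 1 and 2. Over the cells alone, the second table gave -0.83 (STZ) and -1.13 (control) for Cblb, and with STZ macrophages -0.66 for Nt5e and -1.09 for Dgkz. The difference of the STZ effect between days was -0.11 for Dgka, turned to 0.099 by library totals and 0.044 without a filter, and ran from -0.47 to 0.33 without 1 library, and for Nt5e it ran from -0.79 to 0.0072. The causes were not tested. Scaling by library totals moved the median of all genes in control macrophages over cells alone to -0.45, against -0.13 by TMM, and the calls to 2912 higher and 4639 lower, against 3641 and 3465. In STZ over control it was 0.068 against -0.13, with 38 higher and 19 lower against 24 and 27, and 30 and 14 by RLE. No member changed sign in these comparisons under either scaling. Same-numbered STZ-macrophage libraries share only a number with the other groups (3 of 4 correlations over 0.1 with control macrophages, 2 of 4 with cells alone). Under the replicate block Izumo1r, Nrp1 and Egr3 lost their calls in STZ macrophages over cells alone (adjusted p = 0.0893, 0.0780 and 0.0597), and no call changed in control macrophages over cells alone. Egr3, Rnf128 and Egr2 have few counts, which limits their precision, and batch day 2 holds 1 control-macrophage library.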
